A study of Homo sapiens with 18 samples.

Results

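The introns described here share a splice site with another listed intron, for which they may compete. The source was the authors' table of introns in HEK293 cells. An intron was kept when it shared its exact start or end with at least 1 other listed intron of the same chromosome and strand. Within the table this choice used positions only. The table itself lists only introns with over 5 reads in each of the 3 replicates. An intron whose partner at a site was not listed therefore counts as sharing none. Of 21779 distinct introns, 1410 (6.47%) met this rule and 20369 shared neither end. The 1410 introns lay in 499 of the 4162 genes with listed introns. A shared donor (5′ splice site) alone joined 555 of them to another intron, a shared acceptor (3′ splice site) alone joined 659, and 196 shared each end with a different intron. They form 841 pairs, 389 with a shared donor and 452 with a shared acceptor, and 769 of the pairs stand in sets of exactly 2 introns. Among the 1410 introns, 1339 lay in protein-coding genes, 49 in long non-coding RNA genes and 22 in pseudogenes.

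HEK293 is a human embryonic kidney line. In the labelled groups the medium held 500 µM 4-thiouridine, an analogue of uridine that marks newly made RNA, and marked RNA was purified after 7.5, 15, 30, 45 or 60 min, with 3 libraries per time. A further 3 libraries held total RNA without that selection, each with another way of keeping ribosomal RNA out. No genotype or drug differs between the groups, and the labels do not state whether the 3 replicates are separate cultures, so p-values cover only the spread between libraries, which may be technical. Read depth is unknown, since the deposited gene values are TPM and the intron values are fractions. Labelled 45 min replicate 2 listed 13583 genes with a mature TPM above 0, against 15757 to 17236 in the other labelled libraries, counted over genes with a primary transcript value.

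Splicing joins a donor to an acceptor and removes the intron between them. Where a donor can be joined to more than 1 acceptor, or an acceptor to more than 1 donor, the choice sets which exon bases enter the RNA. Skipping of a whole exon, called a cassette exon, lets a long intron compete with the introns on either side of it. Other pairs choose between acceptors or donors at the edge of the same exon, and a tandem acceptor with NAGNAG sequence moves the exon start by a single codon. Genes of SR proteins and hnRNPs, which bind exons and introns and steer splice site choice, are known for exons whose inclusion makes an RNA that is degraded by nonsense-mediated decay.

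The sequences below show what is at stake in the pairs that the results turn on. Each is the spliced RNA across 1 junction, the last 15 exon bases before the intron and the first 15 after it, read from GENCODE 29 transcripts on GRCh38, with the intron's position in that build. Capitals mark exon bases that are present only when the shorter intron, or an intron beside the cassette exon, is removed. The first 4 pairs differ by 2 or 3 bases at the edge of an exon. Excised share was the same for both partners at 60 min in 3 of them, and PCBP2 is shown as the 3-base pair with the largest difference.
MCM10 shorter intron (chr10:13172481-13172624, plus strand): tgcaaaaatcccctgTAGagaagtctcccc
MCM10 longer intron (chr10:13172481-13172627, plus strand): tgcaaaaatcccctgagaagtctccccggc
MRPS11 shorter intron (chr15:88467783-88467907, plus strand): gccccagacagccggCAGggtcgtggccag
MRPS11 longer intron (chr15:88467783-88467910, plus strand): gccccagacagccggggtcgtggccagaac
PCBP2 shorter intron (chr12:53467844-53468776, plus strand): tgaaaggctattgggCAGgtttggatgcat
PCBP2 longer intron (chr12:53467844-53468779, plus strand): tgaaaggctattggggtttggatgcatctg
SUPT4H1 shorter intron (chr17:58351509-58352064, minus strand): ttcgctggtcaagGTactatagaccagttt
SUPT4H1 longer intron (chr17:58351509-58352066, minus strand): tgttcgctggtcaagactatagaccagttt
The next pairs are among those named for a large difference in excised share between partners. The CUX1 and KHSRP pairs choose between sites at the edge of 1 exon, and the ERC1 pair includes or skips an exon of 12 bases, all of which is seen in capitals.
CUX1 shorter intron (chr7:102195604-102196633, plus strand): acagcgacctgagcgGGTCAGCCAGGAGGA
CUX1 longer intron (chr7:102195604-102196939, plus strand): acagcgacctgagcggtccatacagcacaa
KHSRP shorter intron (chr19:6415458-6415533, minus strand): ATTACAAAAAGATCGgccagcagccccagc
KHSRP longer intron (chr19:6415458-6415608, minus strand): ccccaccggctcagggccagcagccccagc
ERC1 shorter intron (chr12:1204513-1236768, plus strand): aagTCTCACCTCAAGgcaagtgaaagacca
ERC1 longer intron (chr12:1190053-1236768, plus strand): agctgagttggaaaggcaagtgaaagacca
The following genes of splicing regulators skip or include a whole exon, and the use of the partners differed most between labelling times in some of them.
SRSF7 shorter intron (chr2:38749347-38749528, minus strand): gcgaagaagaagcagGTTTCTTCGTTTGAG
SRSF7 longer intron (chr2:38748654-38749528, minus strand): gcgaagaagaagcaggtcacggtctagatc
SRSF6 shorter intron (chr20:43459421-43459770, plus strand): ACCTCACACTGTGATgtggtggaggtggat
SRSF6 longer intron (chr20:43458510-43459770, plus strand): gctacggaagccgcagtggtggaggtggat
SRSF3 shorter intron (chr6:36598984-36599820, plus strand): tccacctcgtcgcagAGTCACCATCATGTC
SRSF3 longer intron (chr6:36598984-36601151, plus strand): tccacctcgtcgcagatctccaagaaggag
HNRNPL upstream intron (chr19:38841683-38843841, minus strand): atctcagtggacaagGGTCGCAGTGTATGT
HNRNPL downstream intron (chr19:38840560-38841612, minus strand): TTGAAGCGTCCAATGgtgaccctggcagca
HNRNPL skipping intron (chr19:38840560-38843841, minus strand): atctcagtggacaaggtgaccctggcagca
HNRNPH3 upstream intron (chr10:68337334-68337857, plus strand): ttcagttctttcaagGGTTGGAAATCGTGC
HNRNPH3 downstream intron (chr10:68337997-68338502, plus strand): AAGAATAGGGCACAGgtatattgagatctt
HNRNPH3 skipping intron (chr10:68337334-68338502, plus strand): ttcagttctttcaaggtatattgagatctt
The SAFB cassette had the largest difference between the skipping intron and the short introns, and the skipped exon of UPF3B is printed whole because its inclusion differed between early and late labelling.
SAFB upstream intron (chr19:5648044-5648988, plus strand): catccctggagccagAAAATGAGAAAATAC
SAFB downstream intron (chr19:5649500-5649925, plus strand): TGATCAGAAAATGAGttctcccgaagatga
SAFB skipping intron (chr19:5648044-5649925, plus strand): catccctggagccagttctcccgaagatga
UPF3B upstream intron (chrX:119840685-119841075, minus strand): gaaccaaagattaagGTACACAGGTTTCTG
UPF3B downstream intron (chrX:119838528-119840645, minus strand): GTGAATCAGAAAAATctgctcaagaagcca
UPF3B skipping intron (chrX:119838528-119841075, minus strand): gaaccaaagattaagctgctcaagaagcca
UPF3B cassette exon (chrX:119840646-119840684, minus strand): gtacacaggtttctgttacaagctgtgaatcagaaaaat

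The excised share, called theta by the authors, is the fraction of reads at an intron's ends that come from spliced RNA rather than from exon-intron boundaries, from 0 to 1. It was deposited as the authors' mean over the 3 libraries of each labelling time, so no replicate error can be given, and comparisons of theta below are descriptions without a test. Reads at a shared site can count for both partners, so theta does not measure the removal of 1 intron alone. As 1 class, introns that share a splice site had a lower median theta than introns that share none at every labelling time. Their median theta was 0.479, 0.509, 0.614, 0.733 and 0.785 at 7.5, 15, 30, 45 and 60 min, against 0.546, 0.582, 0.701, 0.810 and 0.846 for the introns that share none. The 196 introns that share each end with a different intron did not follow this direction at every time: their median theta was 0.567, 0.602, 0.697, 0.803 and 0.847 over the same times, above the introns that share none at 7.5, 15 and 60 min and below them at 30 and 45 min. The quartiles overlapped widely: at 60 min the middle of the distribution ran from 0.660 to 0.871 for sharing introns and from 0.764 to 0.904 for the others. The lower tail differed more than the centre. At 60 min 9.72% of sharing introns had a theta below 0.5, against 2.47% of introns that share none, and 15.5% had a theta of at least 0.9, against 26.6%.

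**Figure D1:**
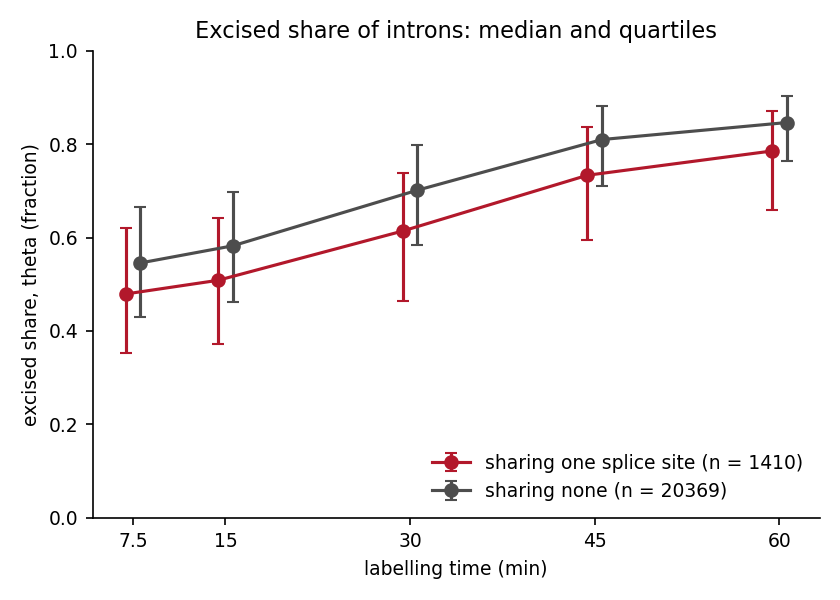
Excised share (theta, fraction, y axis) by labelling time in minutes (x axis) for the 1410 introns that share a splice site and the 20369 that share none; points are medians over introns and bars run from the lower to the upper quartile. The sharing introns have the lower median at all 5 times (0.785 against 0.846 at 60 min).

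The same comparison inside genes gave the same direction in most of them. In 459 genes that hold both kinds, the median theta of the sharing introns was below that of the others in 297 genes and above it in 162 genes at 60 min, and below in 269 and above in 190 at 7.5 min. The median difference within genes was -0.0397 at 60 min and -0.0263 at 7.5 min. Length also differed between the classes. Sharing introns had a median length of 2322 bases, against 1384 bases, and 17.4% of them were 10 kb or longer, against 8.38%. Over 10 equal classes of intron length, the median theta of the sharing introns at 60 min was the lower one in 9. In the longest class, from 8886 bases, it was 0.855, against 0.844 for introns that share none.

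Median splice site scores were lower at the end that is not shared and higher at the shared end. The MaxEnt score rates how closely a site matches the human consensus. Introns that share only their donor, and so differ in their acceptors, had a median acceptor score of 7.49, against 8.74 for introns that share none, and 33.9% of them had an acceptor score below 6, against 13.3%. Introns that share only their acceptor had a median donor score of 8.46, against 8.76, and 18.4% had a donor score below 6, against 10.96%. At the shared end, the median donor score was 8.94 for introns that share only their donor, against 8.76. The median acceptor score was 9.09 for introns that share only their acceptor, against 8.74. GC content was close, with medians of 42.5% and 41.3%. Sharing introns began nearer the gene's start, at a median of 10972 bases from the transcription start site, against 18302 bases.

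Partners of a pair come from the same gene and the same libraries. The longer intron had the higher theta in most pairs. The shorter one was higher in 263 of 820 pairs that differ at 60 min (32.1%) and in 231 of 820 at 7.5 min (28.2%), and 21 pairs had identical values. Introns that share no site were paired with the next such listed intron of the gene, which need not be adjacent to it. In these pairs the shorter one was higher in 55.1% of 16229 at 60 min and in 56.0% of 16230 at 7.5 min. The median size of the difference between partners was 0.0595 at 60 min and 0.0712 at 7.5 min.

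The direction differed with the distance between the unshared sites, which was divided at 100 bases after the values were seen. In the 670 pairs with unshared sites over 100 bases apart, the shorter intron had the higher theta in 23.1% at 60 min and 18.96% at 7.5 min. Of the 171 pairs at most 100 bases apart, 150 differ, and in those the shorter intron was higher in 108 (72.0%) at 60 min and in 104 (69.3%) at 7.5 min. The 60 pairs that lie 1 to 3 bases apart had no such direction, with the shorter intron higher in 22 of the 42 that differ at 60 min and in 22 of 41 at 7.5 min. The 111 pairs that lie 4 to 100 bases apart had it higher in 86 of the 108 that differ at 60 min and in 82 of 109 at 7.5 min. The median difference within pairs, shorter minus longer, was 0.011 at 60 min in all 171 pairs at most 100 bases apart and -0.0505 in the 670 farther apart. The direction also differed with the class of event, which overlaps with distance but is not the same division. Alternative sites of 1 exon can lie over 100 bases apart, as in CUX1 (306 bases, shorter intron higher). Distance and class were not separated. Exon skipping accounted for 458 of the 781 pairs that matched GENCODE 29, and in it the shorter intron was higher in 15.3% at 60 min. With alternative acceptors of 1 exon (133 pairs) the shorter intron was higher in 78 of the 115 pairs that differ (67.8%), and with alternative donors (117 pairs) in 78 of 114 (68.4%). In pairs with alternative first exons (61) the share was 36.1%, and in the 12 with alternative last exons 8.33%. By the way theta is counted, an RNA spliced at the nearer of 2 sites in 1 exon still holds the farther site, and reads across that site can count as unspliced for the longer intron. The part of this in the values was not tested.

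**Figure D2:**
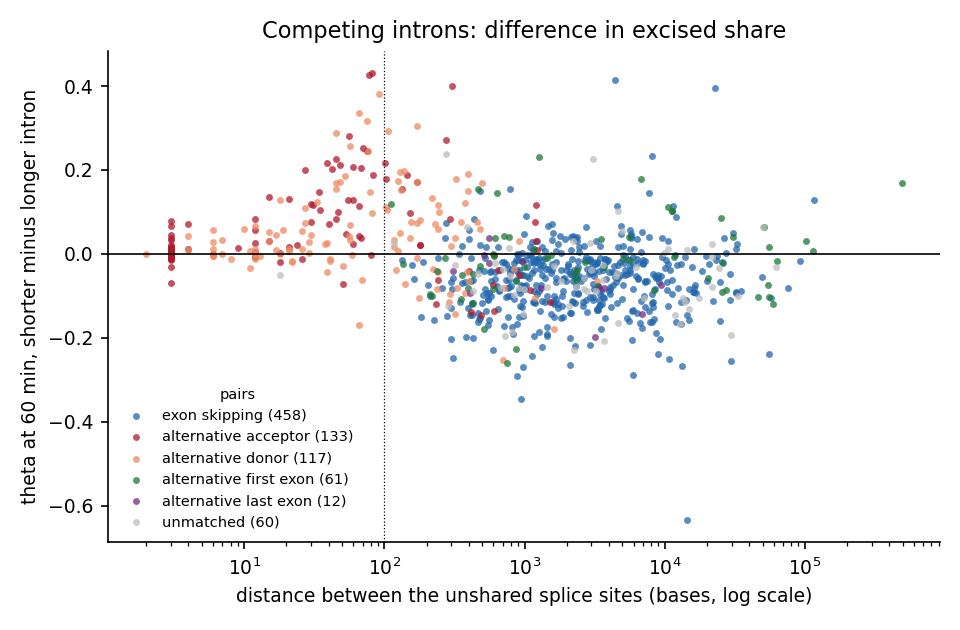
Difference in theta at 60 min, shorter minus longer intron of each of 841 pairs (y axis), against the distance between their unshared sites in bases (x axis, log scale); colours give the event in GENCODE 29 and the dotted line stands at 100 bases. Points at most 100 bases apart lie mostly above 0 (72.0% of pairs that differ), and points farther apart mostly below 0.

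Among the shared-donor pairs named for a large difference, both with alternative acceptors (CUX1 and ZFHX4) had the higher theta in the shorter intron. In CUX1, a homeodomain transcription factor, the shorter intron (1030 bases, chr7:101838884-101839913 on the plus strand of hg19) had a theta of 0.368, 0.442, 0.487, 0.678 and 0.733 at 7.5, 15, 30, 45 and 60 min. The longer one (1336 bases, chr7:101838884-101840219), which ends 306 bases farther on, had 0.227, 0.210, 0.291, 0.350 and 0.332. The shorter intron was above the longer at all 5 times. ZFHX4, a zinc finger homeobox factor, had 0.904 for the shorter and 0.477 for the longer intron at 60 min, with acceptors 78 bases apart. Exon skipping pairs in this group included EWSR1, a FET-family RNA-binding protein, with 0.798 for the shorter and 0.384 for the longer intron. MDM2, the ubiquitin ligase that acts on p53, had 0.851 and 0.455. The acceptor of the longer intron had a MaxEnt score of only 0.5 in EWSR1 and -27.89 in MDM2. The shorter intron took 90.1% of the pair's junction use at 60 min in EWSR1 and 91.2% in MDM2. In SAFB, a chromatin and RNA scaffold protein, the direction was opposite, with 0.341 for the shorter and 0.687 for the longer intron. It was opposite as well in YBX3, a Y-box cold shock protein that binds nucleic acids, with 0.503 for the shorter and 0.791 for the longer intron.

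Among shared-acceptor pairs, the largest difference was in ERC1, a scaffold protein of vesicle docking sites. Its shorter intron (chr12:1313679-1345934, plus strand, hg19), which follows the exon of 12 bases, had a theta of 0.103, 0.167, 0.221, 0.162 and 0.226 across the times, and the longer intron (chr12:1299219-1345934), which skips that exon, had 0.394, 0.685, 0.713, 0.729 and 0.861. The difference at 60 min was -0.635, between introns of similar use, with the shorter taking 47.5% of the pair's junction use. The other 5 named pairs of this class have alternative donors and all had the higher theta in the shorter intron. KHSRP, a KH-domain protein that binds AU-rich elements, had 0.871 for the shorter (76 bases) and 0.554 for the longer intron (151 bases) at 60 min. HNRNPA3 had 0.811 and 0.475, DBF4, the activating subunit of the CDC7 kinase, 0.850 and 0.470, the snoRNA host SNHG17 0.803 and 0.498, and HNRNPUL1 0.812 and 0.519.

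The pairs that differed least were small steps in sequence. In MCM10, a replication initiation factor, and in MRPS11, a mitochondrial ribosomal protein, acceptors 3 bases apart had the same theta at 60 min for both partners, 0.798 in MCM10 and 0.676 in MRPS11. SUPT4H1, a subunit of the elongation factor DSIF, has donors 2 bases apart, with 0.830 for both partners. Donors 12 bases apart in GON4L gave 0.692 for both. Among pairs at most 12 bases apart, the largest difference at 60 min was 0.083 in NOP2, an rRNA methyltransferase, where the shorter intron had 0.699 and the longer 0.616.

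Nearby sites were often a multiple of 3 bases apart. Of the 171 pairs at most 100 bases apart, 127 (74.3%) had a distance that is a multiple of 3, against 35.7% of the 670 pairs farther apart. Of these 127 pairs, 59 share their donor and lie exactly 3 bases apart. In all 59 the 3 extra exon bases end in AG, so the longer intron ends in AG as well: 44 read CAG, 8 AAG, 5 TAG and 2 GAG. Nearly all human introns end in AG, so this describes the pairs and is no test. The shorter intron had the higher junction share in 40 of the 59 pairs at 60 min. Where the 3 bases were CAG it was 30 of 44, and where they were AAG 6 of 8.

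Cassette exons bring 3 introns together: the skipping intron and the introns upstream and downstream of the exon. The table held 194 such triples in 163 genes, with 185 distinct skipping introns, so some triples share 1. Each triple is built from pairs already counted above, so it is not a separate observation. All the skipping introns are among the 196 introns that share each end with a different intron. The skipping intron had a higher theta than the mean of the short introns in 182 of 194 triples at 60 min and in 184 at 7.5 min. Median theta at 60 min was 0.859 for the skipping intron, 0.764 for the upstream and 0.785 for the downstream intron, and at 7.5 min it was 0.580, 0.462 and 0.457. Neither short intron was generally ahead of the other: the upstream one had the higher theta in 87 triples and the lower in 107 at 60 min, and in 101 and 93 at 7.5 min. Of 172 triples matched to GENCODE 29, 163 hold 1 exon, with a median length of 98 bases. The other 9 hold a stretch that is not 1 annotated exon, and the exons in it were not counted. Counted as coding were the 119 single exons that are coding over their whole length in GENCODE 29, and 80 of them have a length that is a multiple of 3. The skipping intron had the higher theta at 60 min in 74 of these 80 triples and in 38 of the 39 with a coding exon of another length.

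**Figure D3:**
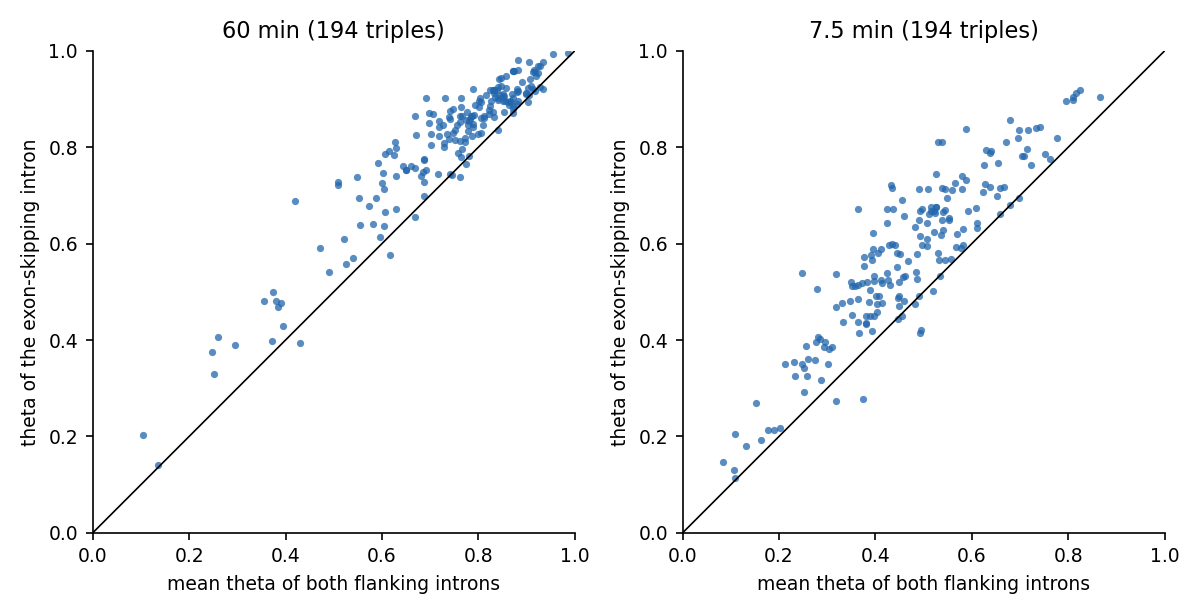
Theta of the exon-skipping intron (y axis) against the mean theta of both flanking introns (x axis), both fractions, for 194 triples at 60 min (left) and 7.5 min (right); the line marks equal values. The skipping intron lies above the line in 182 triples at 60 min and in 184 at 7.5 min.

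SAFB had the widest gap. Its skipping intron had 0.539, 0.456, 0.488, 0.621 and 0.687 at 7.5, 15, 30, 45 and 60 min, while the upstream intron had 0.184, 0.151, 0.186, 0.291 and 0.341 and the downstream intron 0.313, 0.340, 0.330, 0.405 and 0.497. The exon of 511 bases (chr19:5649000-5649510, plus strand, hg19) lies in the coding region, and its inclusion was 92.1, 83.8, 77.1, 84.7 and 90.6% at the 5 times, lowest at 30 min. In PCBP2, a poly(C)-binding protein with a 39-base coding cassette exon, the skipping intron had 0.728 at 60 min, the upstream intron 0.460 and the downstream one 0.558. In PPIA, the abundant cyclophilin A, an exon not counted as coding had an inclusion of 3.30, 5.01, 4.62, 4.36 and 7.94% over the times. At 60 min its skipping intron had 0.739, with 0.621 upstream and 0.474 downstream. MATR3, a nuclear matrix RNA-binding protein, had 0.722 for the skipping, 0.526 for the upstream and 0.492 for the downstream intron. HNRNPC, where the skipping intron passes over a stretch that is not 1 annotated exon, had 0.901, 0.645 and 0.735. All 3 of these HNRNPC introns were little used, with a psi (described below) of 0.0973, 0.0835 and 0.0623 at 60 min in the same order. SDHAP1, a pseudogene of a respiratory chain subunit whose reads can be split with near-identical copies, had 0.865, 0.678 and 0.658. At the other end, MAZ, a zinc finger transcription factor, and PARD3, a cell polarity protein, had the 2 smallest gaps, with theta at 60 min of 0.782 for the skipping, 0.689 for the upstream and 0.872 for the downstream intron in MAZ, and 0.916, 0.890 and 0.946 in PARD3.

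Psi, the authors' spliced-in index, behaves in these values as a junction's share of the spliced reads at its site, and so tells which partner is used more. Its exact formula is not stated in the file headers. It is near 1 for introns that share no site, as 92.1% of them had a psi of at least 0.9 at 60 min, and it lies below 1 for sharing introns partly because of how they were chosen. The psi values of a pair need not add to 1, because other junctions can use the same site: in sets of exactly 2 introns the median sum was 0.909 at 60 min. Shares below are therefore given as the shorter intron's part of the pair's summed psi. The shorter intron held a median of 59.2% at 60 min and 58.8% at 7.5 min, and the same partner had the higher psi at both times in 749 of 841 pairs (89.1%). The shorter intron had the higher psi in 66.8% of shared-donor pairs and in 57.3% of shared-acceptor pairs at 60 min. The intron with the higher score at the unshared site had the higher psi in 49.0% of pairs and the higher theta in 56.0% at 60 min. At a change of at least 20 percentage points, the shorter intron's share was higher at 60 min than at 7.5 min in 47 pairs and lower in 21.

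SRSF7, SRSF6 and HNRNPH3, genes of splicing regulators, were among the 12 genes with the largest shift in partner use between 60 and 7.5 min, which were chosen after their values were seen. SRSF3 and PTBP1 come from the list of genes known for regulated splicing. In SRSF7, an SR protein, the shorter intron (chr2:38976489-38976670, minus strand, hg19) held 14.7% of the pair at 7.5 min, 24.8% at 15, 58.3% at 30, 64.0% at 45 and 56.8% at 60 min. SRSF6, another SR protein, had 26.1, 25.8, 73.3, 66.5 and 55.7%. SRSF3 had 7.91, 38.7, 58.3, 47.9 and 32.7%. In these 3 SR genes the exon-including intron had a higher share at 30 min than at 7.5 min and a lower one at 60 min than at 30 min. In SRSF7 theta at 60 min was 0.424 for the shorter and 0.442 for the longer intron. HMGN1, a nucleosome-binding protein, had 7.12, 21.0, 47.4, 41.2 and 38.8%. The order was opposite in PTBP1, which represses cassette exons, with 88.9, 84.9, 80.3, 72.9 and 73.1%, and ATP13A1, an endoplasmic reticulum transporter, had 82.2, 65.9, 56.0, 42.0 and 48.0%.

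**Figure D4:**
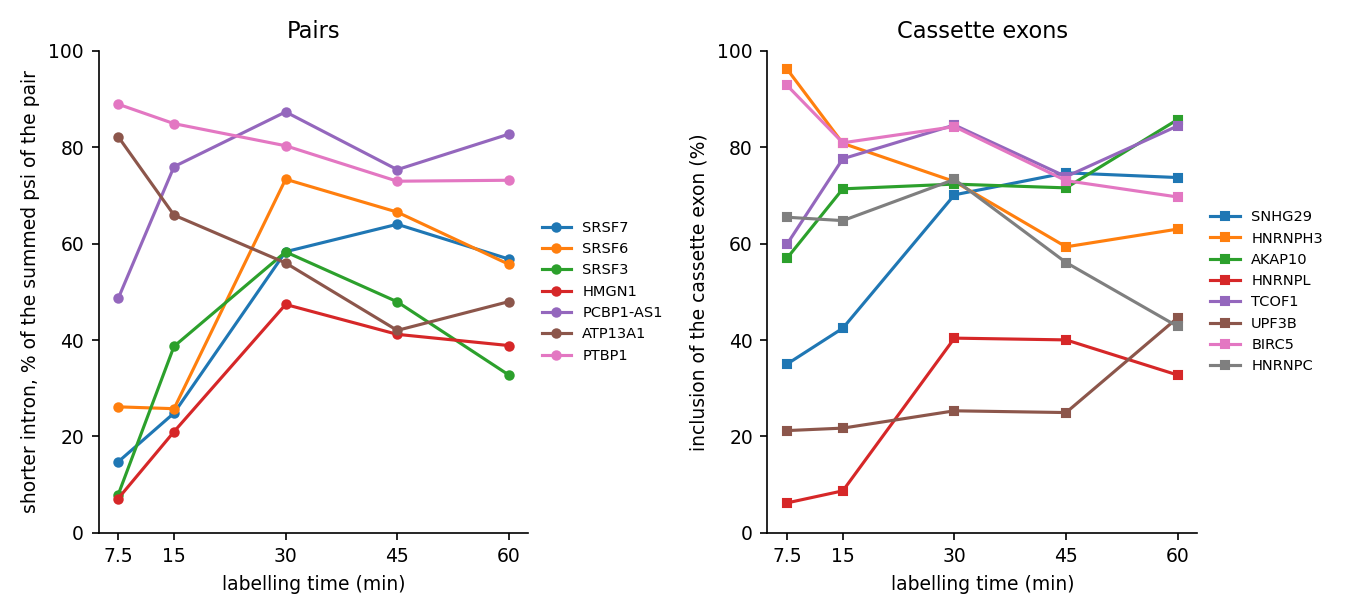
Left, the shorter intron's percent of the pair's summed psi, and right, the inclusion percent of cassette exons, by labelling time in minutes (x axes), as authors' means without replicate error. SRSF7, SRSF6, SRSF3 and HMGN1 on the left and SNHG29 and HNRNPL on the right are higher at 30 min than at 7.5 min, while HNRNPH3, BIRC5 and ATP13A1 are lower at 60 min than at 7.5 min.

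Inclusion, here and above, is the mean psi of both short introns in percent of that mean plus the psi of the skipping intron. Over all 194 triples, median inclusion was 74.9% at 60 min and 75.8% at 7.5 min, and the median difference within triples was 0.78 percentage points. Among 119 coding exons, inclusion was at least 10 percentage points higher at 60 min in 20 and at least 10 points lower in 16, with a median difference of -0.137 points. Another 44 single exons are not coding over their whole length in GENCODE 29, but can be coding in part. Among these 44, which have 41 distinct skipping introns, inclusion was higher by as much in 9 and lower in 0. Of the 9, 2 are exons of SNHG29 that share their skipping intron. The median difference over the 44 was 2.68 points (quartiles -3.96 and 8.14). The difference between these 44 and the coding exons was not tested. The largest difference upward was in SNHG29, a snoRNA host RNA, whose exon (chr17:16342895-16343017, plus strand, hg19) had 35.0, 42.5, 70.1, 74.7 and 73.7% at the 5 times. Its short introns differed in psi, with 0.0890 upstream and 0.383 downstream at 7.5 min, against 0.438 for the skipping intron. At 60 min psi was 0.296, 0.703 and 0.178 in the same order. The exon of HNRNPL, an hnRNP that binds CA repeats, is among the 44 and had 6.21, 8.71, 40.4, 40.0 and 32.7%. HNRNPH3 had the largest difference downward, with 96.2, 80.8, 72.9, 59.3 and 63.0%. BIRC5, the apoptosis inhibitor survivin, had 92.8, 80.9, 84.3, 73.1 and 69.7%. UPF3B, a factor of nonsense-mediated decay, had 21.2, 21.7, 25.3, 24.9 and 44.6% for its 39-base exon (chrX:118974609-118974647, minus strand, hg19), so that its value at 60 min stood apart from the other 4 times. In TCOF1, the treacle protein of rDNA transcription, inclusion was 59.9, 77.6, 84.6, 73.9 and 84.4%.

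A list of 87 genes known for regulated splicing was read across the table. Of these, 63 had listed introns, 31 had sharing introns, and they held 72 pairs. The shorter intron was higher in theta in 18 of these pairs and lower in 53 at 60 min. Over all 820 pairs that differ, the shorter was higher in 263 (32.1%), and over exon skipping pairs in 15.3%. In SNRNP70, the U1 snRNP 70K protein, acceptors 27 bases apart gave 0.911 for the shorter and 0.710 for the longer intron. SNRPB, the Sm protein B of the snRNP core, had 0.741 and 0.553 at 60 min, and the shorter intron's share was 74.5, 77.5, 76.7, 85.4 and 88.5% over the times. Of its 10 named genes, the exon skipping pairs of EWSR1 and MDM2 had the shorter intron higher, with acceptor scores of 0.5 and -27.89 in the longer. Those of 6 others had the longer one higher. HNRNPM had 0.522 for the shorter and 0.761 for the longer intron at 60 min, RBM39, a U2AF-like splicing factor, 0.436 and 0.639, PTBP1 0.673 and 0.871, HNRNPH1 0.473 and 0.636, HNRNPC 0.645 and 0.901, and SRSF3 0.460 and 0.683.

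The genes that carry these introns could be tested in single libraries, through the authors' primary (unspliced, whole-locus) and mature TPM. The unspliced share is taken as primary TPM in percent of the sum of primary and mature TPM. The median over 499 host genes was 7.39, 10.4 and 11.4% in the 60 min libraries and 30.9, 28.99 and 29.3% in the 7.5 min libraries, so the groups did not overlap. Over 3661 other genes with listed introns it was 8.79, 12.4 and 13.7% at 60 min and 35.0, 33.4 and 33.7% at 7.5 min. Without regard to mature level, host genes were below the others in all 15 labelled libraries and in all 3 total libraries. The gap was -1.92 ± 0.464 percentage points at 60 min (SD, n = 3) and -4.31 ± 0.204 at 7.5 min (SD, n = 3), a difference of 2.39 points with a two-sided exact permutation p of 0.1, the smallest that 3 against 3 libraries allow. Both levels were lower at 60 min, with means of 9.72% against 29.7% at 7.5 min in host genes. In the other genes the means were 11.6% and 34.0%. A gap in points scales with these levels, so its narrowing does not show that the sets drew closer in relative terms. Host genes also had higher mature levels, with a median of 87.6 TPM against 49.1 TPM. Compared within 5 classes of mature TPM, the gap was 0.0143 ± 0.323 points at 60 min (SD, n = 3) and 1.41 ± 0.491 points at 7.5 min (SD, n = 3), so its sign at 7.5 min turned round and the difference between times became -1.39 points. Within these classes host genes were also above the others in each of the 3 libraries at 15 min (0.405 ± 0.151 points, SD, n = 3). The same held in each of the 3 total RNA libraries (0.418 ± 0.0835 points, SD, n = 3). Those 3 differ in preparation, so their SD is not a spread between replicates. Host genes were below in each of the 3 libraries at 30 min (-0.312 ± 0.364 points, SD, n = 3), and the gap at 45 min was 0.14 ± 0.603 points (SD, n = 3).

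**Figure D5:**
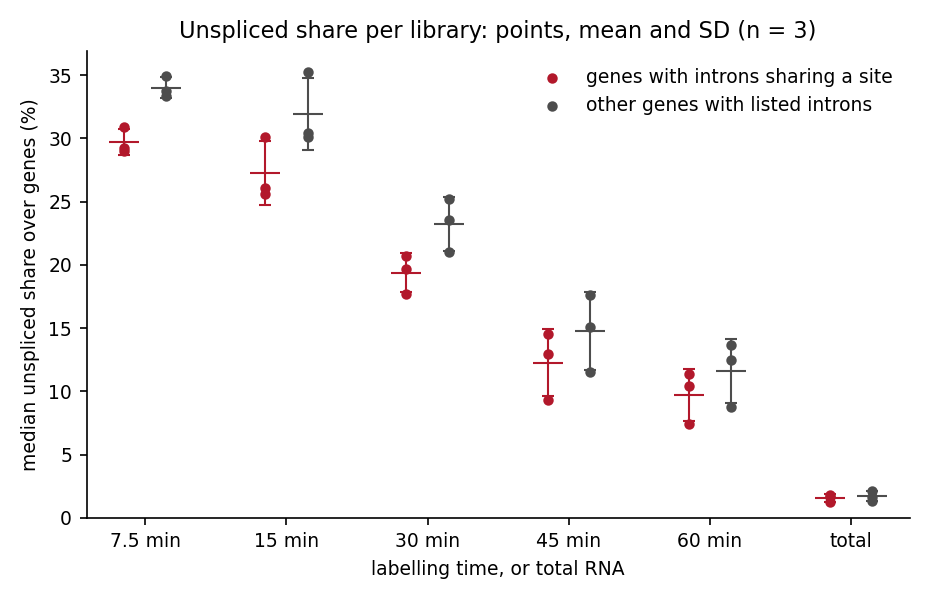
Median unspliced share over genes (percent, y axis) in each library, by labelling time or total RNA (x axis), for the 499 genes with introns sharing a site and 3661 other genes with listed introns; points are libraries and bars are mean and SD (n = 3). The host genes lie below the other genes in each of the 18 libraries, with no allowance for mature level. The 3 total RNA libraries differ in preparation and are not replicates.

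In limma on the log2 ratio of primary to mature TPM, with Benjamini-Hochberg adjustment over 13866 genes, 434 of 499 host genes (87.0%) fell at 60 min against 7.5 min and 8 rose, where 62.8% of all genes tested fell and 1.09% rose. Other genes with listed introns fell in 84.0%, and the median log2 change was -1.97 in host genes, -1.99 in those others and -1.81 over all genes tested. The ratio was also centred on the median gene of each library, which takes out the shift that all genes share. Then 118 host genes (23.6%) were lower and 84 (16.8%) higher, against 14.9% and 12.8% of all genes tested and 21.2% and 17.2% of the other genes with listed introns. The 31 host genes on the regulated splicing list fell in 28 cases and rose in 1, RPS24, a ribosomal protein of the small subunit.

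The largest called falls were in MYC, KDM6A, ZNF711 and SINHCAF. MYC, a growth-promoting transcription factor, had an unspliced share of 1.76, 2.75 and 3.39% at 60 min and 39.0, 37.9 and 42.3% at 7.5 min (log2 ratio change -4.65 ± 0.285 SE, limma adjusted p = 2.23e-06). KDM6A, a histone H3 lysine demethylase, had 2.47, 6.27 and 7.69% at 60 min and 53.6, 43.3 and 48.3% at 7.5 min (-4.14 ± 0.555 SE, limma adjusted p = 4.74e-05). ZNF711, a zinc finger protein, had 10.4, 12.8 and 10.7% at 60 min and 72.9, 63.0 and 68.5% at 7.5 min, and SINHCAF, a subunit of the SIN3 deacetylase complex, 5.44, 9.38 and 12.3% and 52.8, 52.9 and 64.7%. These 4 genes were picked by this same comparison, so the distance between their groups adds nothing to the call. The largest called rises were in APRT, BEX3, MYL6 and SLC25A39. APRT, which salvages adenine, had 62.5, 51.5 and 47.1% at 60 min and 18.3, 15.3 and 14.6% at 7.5 min (2.61 ± 0.402 SE, limma adjusted p = 0.000118). BEX3 had 15.9, 14.9 and 9.48% at 60 min and 7.78, 4.39 and 4.62% at 7.5 min, and MYL6, a myosin light chain, 17.5, 9.83 and 8.67% and 6.36, 4.65 and 4.60%. SLC25A39, a mitochondrial carrier, had 25.8, 18.1 and 20.6% at 60 min and 8.87, 8.88 and 13.2% at 7.5 min. The 4 genes with rises were picked in the same way. Their mature TPM was lower in each 60 min library than in each 7.5 min library.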

How the data were processed

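RNA from HEK293 cells was measured in 15 libraries of 4-thiouridine-labelled RNA and 3 of total RNA, grouped by the labels. The authors deposited theta and psi of introns as fractions, from reads at junctions and splice sites counted with a slightly modified bam2ssj, kept where every 1 of the 3 replicates had over 5 reads, and averaged, per the file headers. MaxEnt scores, branch point scores and polypyrimidine tract scores, GC fractions and log10 lengths are as the authors deposited them, per the file headers. The authors deposited TPM from RSEM 1.2.11 with Bowtie 1.0.1 on hg19, per the submitters' processing notes, with GENCODE 19 and 1 whole-locus primary isoform per gene, per the file headers. For these reads the aligner is not given in the sources used. TPM and averaged fractions carry no read depth, so no counting intervals are given.

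Intron positions come from the identifiers in hg19, where length equals end minus start plus 1. Of 21782 entries, 6 list 3 introns under 2 genes each, and each intron was counted once. Symbols, event classes and sequences come from GENCODE 29 (GRCh38), which matched 781 of 841 pairs by gene, shared site and exact lengths, with no coordinates converted. Limma 3.58.1 in R 4.3.3, with an empirical Bayes trend, tested log2((primary + 0.1)/(mature + 0.1)) in the 15 labelled libraries for genes whose mean reached 1 TPM (mature) and 0.1 TPM (primary), with Benjamini-Hochberg adjustment at 0.05. The fold change on this scale understates changes of low genes. Limma was tested on simulated data, where it made few false calls and missed more of the added changes than it found, so a gene that was not called is not shown to be unchanged. The median unspliced share was compared by a two-sided exact permutation test. Python 3.11.15 with SciPy 1.17.1 was used.

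Members and lists were chosen with earlier results of these data known. Named are, for shared donors, shared acceptors and cassette triples, the 6 largest and 2 smallest theta differences at 60 min, the 4 largest among pairs at most 12 bases apart, up to 10 from a list of genes known for regulated splicing, and the 4 largest called falls and rises among host genes, 1 pair per gene. A result that may not be named is not reported here, and the next by the rule was taken. Alternatives changed the set of introns or pairs, the pseudocount, the filter, the scaling and the libraries used.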

Additional observations from a re-analysis of the deposited data

How the results depend on the processing

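The median theta of sharing introns minus that of others was -0.0609 at 60 min and -0.0665 at 7.5 min. It reversed to 0.00039 at 60 min and 0.0215 at 7.5 min for the introns that share both ends, a subset chosen after seeing the data. Sharing introns were lower under the other 8 alternatives at each time, but the size moved to -0.0469 at 7.5 min against introns of the same genes, and, for introns sharing their acceptor, to -0.0452 at 60 min and -0.0462 at 7.5 min. The percent of pairs with the higher theta in the shorter intron moved to 23.1 at 60 min and 18.96 at 7.5 min for pairs over 100 bases apart, and to 27.2 and 18.8 for pairs that differ by at least 0.05. It reversed to 72.0 at 60 min and 69.3 at 7.5 min for pairs at most 100 bases apart, a split chosen after seeing the data. Pairs with the higher theta at the better site moved to 50.7% in pairs at most 100 bases apart. Pairs with the higher psi in the shorter intron moved from 61.7% overall to 66.8% for shared donors, 57.3% for shared acceptors and 69.1% where theta differs by at least 0.05, and pairs with the same leading partner moved to 86.0% at most 100 bases apart. The cause of these moves was not tested.

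Host genes called numbered 442, and 408 to 438 without each library in turn. Centring gave 202, and host genes with at least 2 pairs gave 182, since fewer genes are in that set. A replicate block gave 452 calls. Same-lettered libraries correlated at 0.140, 0.0792 and 0.0502 in their deviations, each best with its own letter, which is a hint from the data and not the design. For the unspliced share, the difference of 2.39 points between times ranged from 2.14 to 2.59 without each library, reversed to -1.39 within 5 classes of mature TPM, and with same-letter pairs as a replicate block stayed at 2.39 (exact sign permutation p = 0.25). Theta and psi are the authors' means, so no leave-one-out value exists for them, and depth, which is not given, limits how small a difference can be read.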
